A study of Saccharomyces cerevisiae with 8 samples.

Results

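Cell wall mannoproteins are the secreted, sugar-coated proteins of the outer layer of the yeast wall. Of the 6692 genes in the deposited count table of this budding yeast (Saccharomyces cerevisiae) study, 10 were taken by identifier: CCW12, CWP1, CWP2, SED1, TIP1, TIR1, PIR1, HSP150, PST1 and UTR2. All 10 passed the low-count filter, as did 5336 genes in all. The study sequenced ribosome footprints, meaning mRNA stretches of 26 to 32 nt that survive RNase digestion inside ribosomes, and compared those of single ribosomes (monosomes), those of mRNAs that carried several ribosomes (polysomes) and those of the unfractionated extract (global footprints) with mRNA fragments of 20 to 45 nt. There were 4 groups with 2 libraries apiece. All came from cells grown in YEPD, a rich glucose medium, at 30 °C to an OD600 of 0.6. All were exposed for 2 min to cycloheximide, which stalls elongating ribosomes, at 100 ug/ml. For the monosome and polysome libraries a first sucrose gradient preceded digestion, whereas the extract for global footprints was digested before its only gradient. The labels name neither the strain nor any genetic change. The labels do not say whether the 2 libraries of a group came from separate cultures, so p-values reflect no more than how far the libraries of a group lie apart, which may be technical. In such bulk cultures, fewer cells using a gene and less RNA per cell cannot be told apart.

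The wall of budding yeast is an inner mesh of glucan and chitin under a coat of mannoproteins. Most of these proteins enter the endoplasmic reticulum while they are being made, receive mannose chains on serine and threonine, and gain a glycolipid (GPI) anchor that is later exchanged for a bond to glucan. Pir proteins lack that anchor and are tied to glucan through their internal repeats. The coat is renewed with every bud, and its makeup changes with the cell cycle, temperature, oxygen and damage to the wall.

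By role, 6 of the 10 genes encode structural GPI proteins: CCW12, CWP1, CWP2, SED1, TIP1 and TIR1. CCW12 (YLR110C, chromosome XII, 369697 to 370098, R64 assembly) encodes 133 amino acids and its protein gathers at growing sites. CWP2 (YKL096W-A, chromosome XI, 259253 to 259531) is the shortest at 92 amino acids, and CWP1 (YKL096W, 261132 to 261851 on the same chromosome) encodes 239 amino acids. SED1 (YDR077W) encodes a major wall protein of stationary cells. TIP1 (YBR067C) and its relative TIR1 (YER011W) respond to cold shock, and TIR1 also to lack of oxygen. PIR1 (YKL164C) and HSP150 (YJL159W) are the 2 Pir genes of the set. PST1 (YDR055W) encodes a GPI protein that increases when the wall is damaged. UTR2 (YEL040W), also called CRH2, encodes an enzyme that joins chitin to glucan and so is not a purely structural protein. None of the 10 overlapped another gene in the R64 table. Pir genes resemble one another in sequence, as do TIP1 and the TIR genes, and the sources used here do not state how reads with several matches were counted, so reads of HSP150, PIR1, TIP1 and TIR1 could be split with relatives or lost.

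Depth differed widely: the fractionated libraries held 4723489 to 8686385 counts, against 552992 to 933252 in the global and mRNA libraries. Levels are given as CPM, counts per 1000000 counts of a library whose size was rescaled by the TMM method to balance most genes. The depth of the global and mRNA libraries limits the rarest members: PST1 had 35 and 32 global footprints, and UTR2 had 57 and 60.

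CCW12 and CWP2 dominated the set. CCW12 had 24624 and 26656 CPM in the monosome libraries, 33773 and 29734 in the polysome libraries, 18691 and 17479 in the global libraries, and 8372 and 7118 in the mRNA libraries. Every footprint library lay above both mRNA libraries, and on this TMM scale polysomes lay above monosomes. By counts it ranked 1 among all genes in both monosome libraries, 3 in the polysome and global libraries and 23 in the mRNA libraries. It took 2.99% and 3.34% of monosome counts (95% Clopper-Pearson intervals 2.98 to 3.01% and 3.33 to 3.35%), 2.97% and 2.74% of polysome counts, and 0.578% and 0.547% of mRNA counts (0.562 to 0.593% and 0.529 to 0.564%). As shares, monosomes thus lay above polysomes, the reverse of the TMM order. These intervals cover counting error only. CWP2 had 5376 and 5681 CPM in monosomes, 7719 and 7148 in polysomes, 3418 and 2940 in global footprints, and 1214 and 888 in mRNA. Both fractions lay above the global libraries, which lay above mRNA. Polysomes lay above monosomes on the TMM scale only: as shares of counts CWP2 took 0.653% and 0.712% in monosomes and 0.680% and 0.660% in polysomes, which overlap. The 10 genes together took 4.02% and 4.47% of monosome counts, 3.97% and 3.72% of polysome counts, 2.95% and 2.88% of global counts, and 1.16% and 1.09% of mRNA counts. CCW12 alone made up 73.9 to 76.8% of the set's counts in the 6 footprint libraries and 49.8% and 50.4% in the mRNA libraries.

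Per kb of coding length, the mRNA of CCW12 stood at 19266 ± 2206.9 CPM per kb (SD, n = 2), followed by CWP2 at 3768 ± 826 and HSP150 at 2981.0 ± 298. In that order CWP2 and HSP150 overlapped between libraries, as did TIP1 (805 ± 183), PIR1 (743 ± 133) and SED1 (653 ± 91.6). UTR2 (395 ± 3.75), CWP1 (320 ± 72.2), TIR1 (214 ± 33.8) and PST1 (70.7 ± 12.8) followed, with no overlap between neighbours. The median of 5264 genes with a length was 21.2 CPM per kb, below all 10. In global footprints CCW12 (44987 ± 2131.0 CPM per kb) and CWP2 (11394 ± 1210.1) led by a wide margin, HSP150 was at 691 ± 5.05, and UTR2 (53.1 ± 11.3) had dropped to the last place but one, above PST1 (31.7 ± 3.66). Among the 5264 genes CCW12 ranked 7 per kb in mRNA, 1 in global and polysome footprints and 2 in monosome footprints. For these ranks lengths ran from gene start to gene end, introns included. Genes with introns therefore ranked lower than they would per kb of coding length. UTR2 ranked 388 in mRNA and 1670 in global footprints. CWP1 and TIR1 overlapped in global footprints, HSP150 and TIP1 in polysomes, and UTR2 and PST1 in monosomes.

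**Figure D1:**
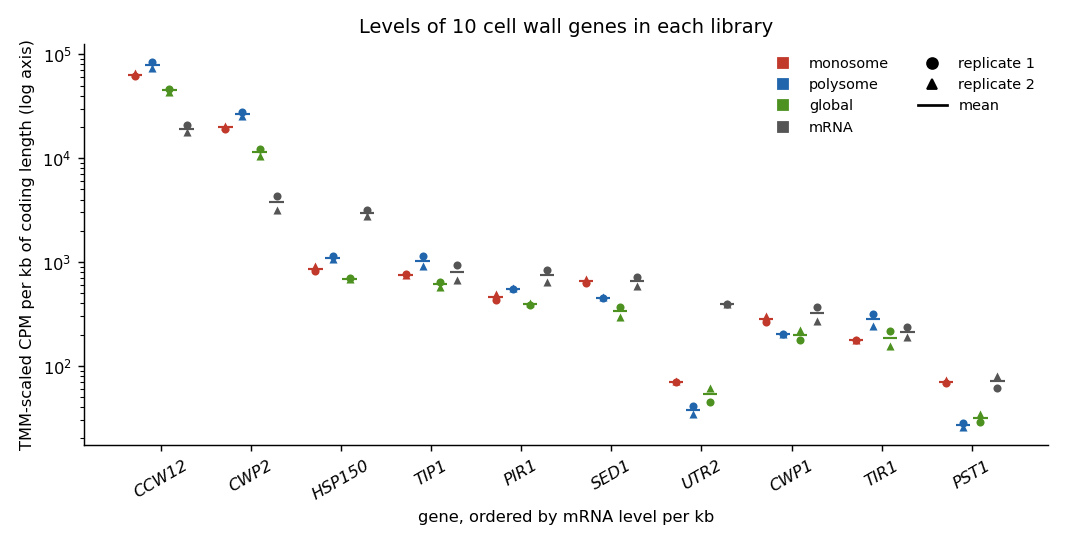
TMM-scaled CPM per kb of coding length (log axis) of the 10 genes, with 1 point per library and a dash for the mean of the 2 libraries in each group. CCW12 and CWP2 have more footprints than mRNA per kb in every library, while HSP150 and UTR2 lie lower in all 6 footprint libraries than in mRNA.

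The first comparison asked which of these genes had more monosome than polysome footprints on the TMM scale. PST1, UTR2, SED1 and CWP1 were higher in monosomes, and the other 6 were called lower on the TMM scale but not with library totals. Thus 4 of 10 were called higher against 36.6% of all 5336 genes, and 6 of 10 lower against 33.5%, with a median log2 fold change (monosome over polysome, below the log2 ratio) of -0.29 against 0.05 over all genes. The 10 genes spanned 2.06 on the log2 scale, a 4.17-fold spread between PST1 and TIR1.

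PST1 had 91.3 and 96.6 CPM in monosomes and 37.7 and 34.3 CPM in polysomes. The groups lay far apart, with a log2 ratio of 1.39 (SE 0.11; edgeR, adjusted p = 4.73e-21), or 2.61-fold. UTR2 had 98.1 and 100 CPM in monosomes and 57.3 and 47.8 CPM in polysomes (log2 ratio 0.91, SE 0.11; edgeR, adjusted p = 9.88e-13). Both had few footprints within the set. SED1 had 641 and 693 CPM in monosomes against 458 and 464 in polysomes (0.53, SE 0.11; edgeR, adjusted p = 1.18e-05). CWP1 had 189 and 220 CPM against 147 and 146 (0.48, SE 0.10; edgeR, adjusted p = 1.03e-05). Calls and direction of these 4 genes were the same under all 15 alternatives, from 0.40 for CWP1 to 1.84 for PST1. With library totals PST1, UTR2, SED1 and CWP1 stood at 1.84, 1.37, 0.99 and 0.94.

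TIR1 had 134 and 136 CPM in monosomes and 244 and 187 CPM in polysomes, with a log2 ratio of -0.67 (SE 0.10; edgeR, adjusted p = 7.06e-09). Its 2 polysome libraries differed from each other, yet both lay above the monosome libraries. TIP1 (481 and 475 against 724 and 582 CPM) had a log2 ratio of -0.45, CWP2 of -0.43, HSP150 (1017 and 1133 against 1413 and 1332 CPM) of -0.35, CCW12 of -0.31 and PIR1 (441 and 508 against 562 and 577 CPM) of -0.26. The edgeR adjusted p values of these 5 genes, in the order given, were 0.000237, 0.00274, 0.00703, 0.0455 and 0.0284. These lower calls rest on the scaling: with library totals only, the median of all genes moved by 0.45 and 0 of the 6 were called lower with edgeR (DESeq2, on its own scale, called 5, and 1 of the 6 had an unadjusted edgeR p under 0.05). On that scale TIR1 stayed negative at -0.22, and TIP1, CWP2, HSP150, CCW12 and PIR1 turned to 0.01, 0.03, 0.10, 0.15 and 0.19. Relative to the median of all genes, the 6 lay at -0.72 to -0.31 on either scale. A change of scale moves all genes alike, so this match was fixed in advance and is no check on the calls. RLE factors ended the calls of CCW12 and PIR1, DESeq2 that of PIR1, and a filter at a mean of 100 counts all but that of TIR1. Without monosome replicate 1 TIP1 and TIR1 passed, and without polysome replicate 1 only TIR1 did (-0.44). Without monosome replicate 2 and polysome replicate 2, 5 and 4 of the 6 passed. Only CCW12 lost its call in all 4 of these fits, and PIR1 lost it in 3. In the authors' deposited table the log2 fold changes have the same signs for all 10 genes, from 1.30 for PST1 to -0.73 for TIR1, with the largest adjusted p at 0.0022 for PIR1.

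**Figure D2:**
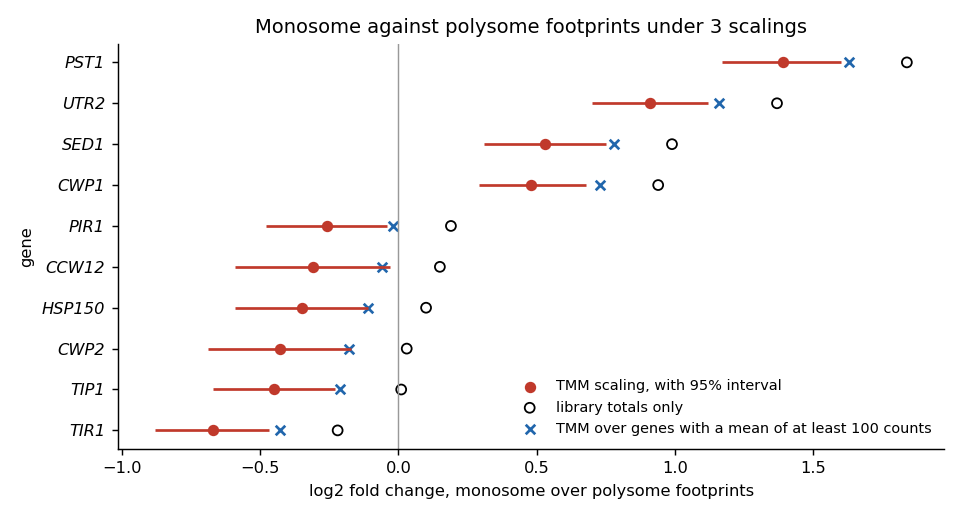
Log2 ratio of monosome over polysome footprints per gene, with the 95% interval of the TMM fit, beside values from library totals only and from TMM over genes whose counts averaged 100 or more. PST1, UTR2, SED1 and CWP1 are above 0 on all 3 scales, whereas 5 of the other 6 cross 0 with library totals.

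Count ratios between 2 genes of the same library do not depend on such scaling. CWP2 had 28.5 and 25.9 counts per CWP1 count in monosomes, 52.6 and 49.1 in polysomes, 26.8 and 18.5 in global footprints, and 4.55 and 4.59 in mRNA. The polysome ratios lay above all others and the mRNA ratios below all others. CCW12 had 270 and 276 counts per PST1 count in monosomes and 897 and 868 in polysomes, a gap that no change of scale can close. TIP1 and TIR1 stayed close to each other, at 3.58 and 3.50 TIP1 counts per TIR1 count in monosomes, 2.97 and 3.12 in polysomes, 2.47 and 3.06 in global footprints and 3.26 and 2.95 in mRNA. HSP150 had 2.31 and 2.23 counts per PIR1 count in monosomes, 2.51 and 2.31 in polysomes and 2.19 and 2.05 in global footprints, against 4.62 and 5.17 in mRNA. The Pir pair thus differed in its balance between mRNA and footprints, while the 3 kinds of footprints lay within a narrow band.

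The spread of all genes in this comparison was read by length class, with no test between classes. Lengths include introns, so a gene with an intron can fall in a longer class than its coding length would give. Of 161 tested genes of up to 300 nt, 79.5% were called higher in monosomes and 4.35% lower, with a median log2 ratio of 1.12 and a middle range of 0.51 to 1.80. CWP2, at 279 nt, lay below that range at -0.43. Of 638 genes over 300 and up to 600 nt, 51.6% were higher and 21% lower, with a median of 0.33 and quartiles of -0.15 and 0.89. CCW12, at 402 nt, lay below the lower quartile at -0.31. The 5 genes over 600 and up to 1200 nt fell around a class median of -0.01, with quartiles of -0.58 and 0.68: TIR1 lay below the lower quartile and the other 4 within the range. PST1 and UTR2, over 1200 and up to 2400 nt, lay above the upper quartile of 0.67 of their class, and HSP150 lay within it.

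**Figure D3:**
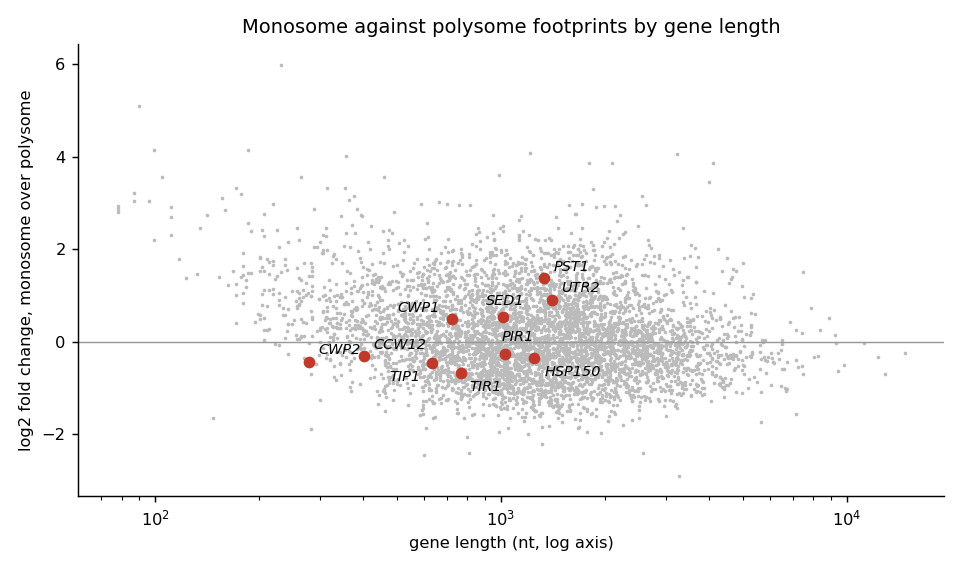
Log2 ratio of monosome over polysome footprints against gene length (log axis) for all tested genes with a length (grey) and the 10 wall genes (red). CWP2 and CCW12 sit below the lower quartile of genes of their length class, and PST1 and UTR2 above the upper quartile of theirs.

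Comparing global footprints with mRNA asked how heavily each mRNA was occupied by ribosomes, a ratio known as translational efficiency. CCW12 and CWP2 had more footprints than mRNA, and 7 genes had fewer on the TMM scale, of which 2 were still called with library totals. Thus 2 of 10 were called higher against 34.8% of all genes, and 7 of 10 lower against 31%. The median log2 ratio was -0.82 against 0.15 over all genes, and the set spanned 4.51 on the log2 scale.

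CWP2 had a log2 ratio of 1.59 (SE 0.14; edgeR, adjusted p = 4.89e-18), or 3.02-fold, and CCW12 of 1.22 (SE 0.14; edgeR, adjusted p = 2.01e-12), or 2.33-fold. Both lay within the middle range of genes of their length, which was 0.70 to 3.28 up to 300 nt and 0.46 to 2.46 over 300 and up to 600 nt. At the other end, UTR2 had 63.3 and 85.8 CPM in global footprints and 559 and 552 CPM in mRNA. The log2 ratio was -2.92 (SE 0.15; edgeR, adjusted p = 9.30e-33), which is 7.57-fold lower. HSP150 had 863 and 854 CPM in global footprints and 3964 and 3441 CPM in mRNA (-2.11, SE 0.13; edgeR, adjusted p = 1.85e-27), which is 4.31-fold lower. Both lay under the lower quartile of -1.55 of genes over 1200 and up to 2400 nt. The calls of these 4 genes were the same under all 15 alternatives.

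PST1 (38.9 and 45.8 against 82.3 and 106 CPM) had a log2 ratio of -1.15, SED1 (379 and 300 against 730 and 598 CPM) of -0.96 and PIR1 (393 and 416 against 859 and 666 CPM) of -0.92. CWP1 (128 and 159 against 267 and 194 CPM) had one of -0.72 and TIP1 (411 and 368 against 592 and 428 CPM) of -0.39. The libraries of the 2 groups did not overlap for these 5 genes, nor for 9 of the 10 in all, against 81.2% of genes tested. The edgeR adjusted p values of the 5, in the order given, were 8.31e-06, 1.03e-09, 2.04e-09, 5.81e-05 and 0.0103. TIR1 (167 and 120 against 182 and 145 CPM) was not called, at -0.18 with a 95% interval of -0.53 to 0.16, and its groups overlapped, though a filter at a mean of 100 counts gave a lower call at -0.45. With library totals only, the median of all genes moved by 0.76. PST1, SED1 and PIR1 were then no longer called at -0.39, -0.20 and -0.16, CWP1 turned to 0.05, and TIP1 (0.37) and TIR1 (0.58) were called higher. Without mRNA replicate 1 neither CWP1 (-0.39) nor TIP1 (-0.07) was called, TIP1 was not called without global replicate 2 (-0.28), and TIR1 turned to 0.06 in either fit. Relative to the median of all genes, 8 of the 10 lay below it and CCW12 and CWP2 above it. That place cannot differ between scales, which move all genes alike, so it is no check on the calls.

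**Figure D4:**
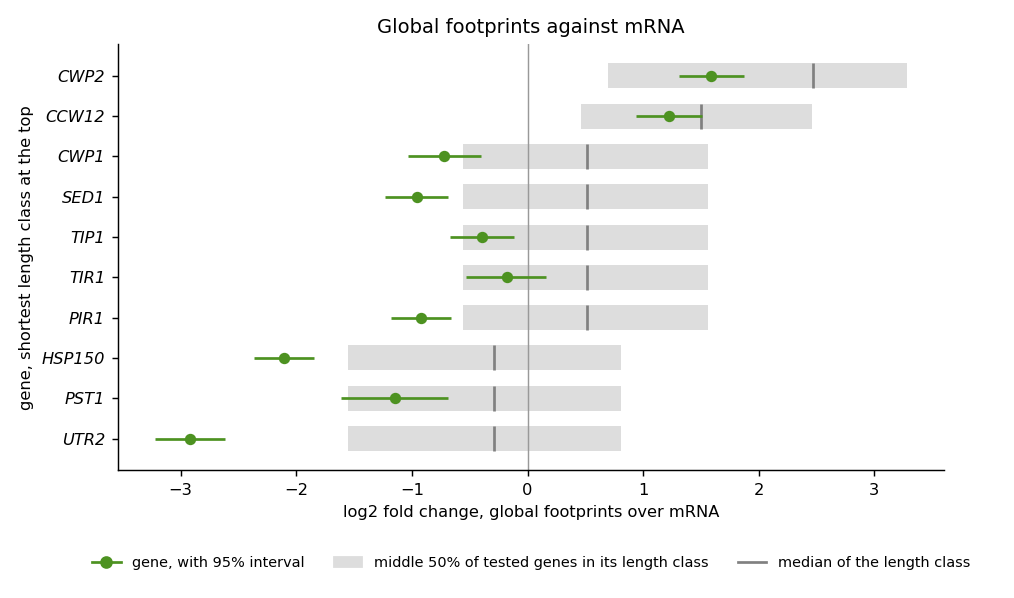
Log2 ratio of global footprints over mRNA for each gene with its 95% interval (green), on the median (line) and middle 50% (grey) of all tested genes in the same length class. CWP2 and CCW12 lie within the range of their classes, and CWP1, SED1, PIR1, HSP150 and UTR2 lie below theirs.

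The last 2 comparisons set each fraction against global footprints, and they share the global libraries. In monosomes 8 of the 10 genes were called higher, against 22.2% of all genes, and 0 lower with edgeR (also 0 by unadjusted p under 0.05 and 0 by DESeq2), against 24.3% of all genes. The median was 0.47 against -0.00 over all genes. With a filter at a mean of 100 counts, 9 of the 10 were higher and 0 lower, against 1025 and 915 of 3086 genes. Over all genes tested, short genes were called higher more often. Up to 300 nt, the class of CWP2, 65.8% were (median 1.02). Over 300 and up to 600 nt, the class of CCW12, 45.1% were (median 0.47). In the classes of the other genes, 27.4% were higher over 600 and up to 1200 nt, and 14.4% over 1200 and up to 2400 nt. CWP2 thus lay below the median of its class and CCW12 close to that of its class. PST1 (log2 ratio 1.17, SE 0.18; edgeR, adjusted p = 3.98e-08), SED1 (0.97, SE 0.13; edgeR, adjusted p = 1.67e-10) and CWP2 (0.80, SE 0.13; edgeR, adjusted p = 3.02e-07) kept their calls under all 15 alternatives. CWP1 (0.53), CCW12 (0.50), UTR2 (0.43), HSP150 (0.32) and TIP1 (0.29) also passed. CWP1 and UTR2 lost their calls without global replicate 1 (0.36 and 0.20), and CCW12 without global replicate 2 (0.44; edgeR, adjusted p = 0.0515). HSP150 lost its call without either global library or monosome replicate 2, and TIP1 without any 1 of the 4 libraries compared, without the low-count filter and with DESeq2. PIR1 (0.23, 95% interval -0.01 to 0.48) and TIR1 (-0.11, -0.38 to 0.17) were not called, though PIR1 passed without monosome replicate 1 (0.34), without either mRNA library (0.28) or with a filter at a mean of 100 counts (0.33). TIR1 turned to 0.16 without global replicate 1.

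In polysomes 7 of the 10 genes were called higher than in global footprints, against 13.5% of all genes, and 1 lower, against 10% of all genes. The median was 0.53 against -0.02. With a filter at a mean of 100 counts 6 were higher, against 491 of 3086 genes. Over all genes tested, 13.7% were called higher up to 300 nt, the class of CWP2. In the class of CCW12, over 300 and up to 600 nt, 26.3% were. Over 600 and up to 1200 nt, the class of TIP1, TIR1, PIR1, SED1 and CWP1, 21.7% were. Over 1200 and up to 2400 nt, the class of HSP150, UTR2 and PST1, 7.7% were. CWP2 (log2 ratio 1.22, SE 0.13; edgeR, adjusted p = 2.64e-12), CCW12 (0.81, SE 0.14; edgeR, adjusted p = 3.36e-06), TIP1 (0.74, SE 0.13; edgeR, adjusted p = 1.55e-06) and HSP150 (0.68, SE 0.13; edgeR, adjusted p = 1.31e-05) passed under all 15 alternatives. TIR1 (0.57), PIR1 (0.49) and SED1 (0.43) passed on the TMM scale. With library totals, where the median of all genes moved by -0.45, they were not called, at 0.12, 0.04 and -0.01. TIR1 also lost its call without polysome replicate 1 (0.35), and TIR1 and SED1 without global replicate 2 (0.38 and 0.29). SED1 was not called with a filter at a mean of 100 counts (0.29) either. UTR2 was lower at -0.48, but not called without polysome replicate 2 (-0.31), without global replicate 2 (-0.26) or without either mRNA library (-0.40). CWP1 (0.04, 95% interval -0.23 to 0.31) and PST1 (-0.22, -0.62 to 0.18) did not pass. CWP1 was called lower at -0.41 and PST1 at -0.67 with library totals.

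**Figure D5:**
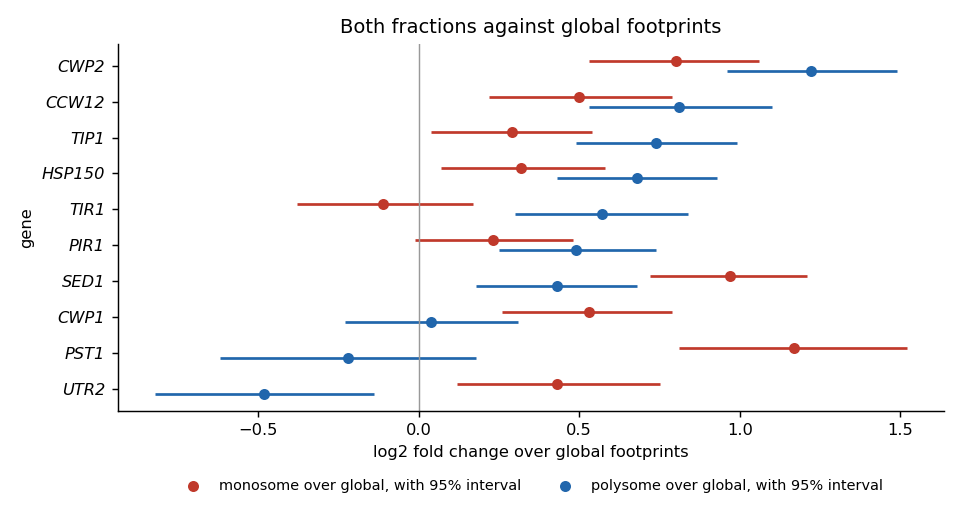
Log2 ratio over global footprints for monosomes (red) and polysomes (blue), with 95% intervals, for each gene. Monosome values are above 0 for 9 of the 10 genes, and PST1 and UTR2 have polysome values below 0, which with library totals CWP1 (-0.41) and SED1 (-0.01) also have.

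A pattern chosen after the values were seen concerns the place of the global libraries. As a share of all counts, CCW12, CWP2, TIP1 and HSP150 were lower in both global libraries than in all 4 monosome and polysome libraries. That is 4 of the 10 genes, against 5.68% of genes tested (303 of 5336). HSP150 took 0.104% and 0.108% of global counts, 0.123% and 0.142% of monosome counts and 0.124% and 0.123% of polysome counts. CWP2 took 0.411% and 0.372% of global counts, and between 0.653% and 0.712% in the 4 fractionated libraries. No member lay above all fractionated libraries in both global ones (0 of 10), a place held by 30.2% of genes tested. On the TMM scale 6 of 10 lay below, with SED1 and PIR1 added, against 15.4% of genes, and 0 of 10 above, against 15.6%. The global libraries were also shallower and passed 1 gradient rather than a pair, and the part of either in this pattern was not tested.

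Other genes of the wall were read from 3 lists. Of 37 further wall proteins 34 were tested: 17 were higher in monosomes than in polysomes and 6 lower (median 0.35, or 0.27 with FLO5 and FLO11, which had no count in 1 of the groups, at their bound). With library totals these counts were 23 and 1. NCW2 was highest among those with enough counts, at 136 and 155 CPM in monosomes and 33.2 and 39.5 CPM in polysomes (log2 ratio 2.00, SE 0.11; edgeR, adjusted p = 5.80e-32). FIT3, a mannoprotein that helps to hold siderophore iron, was lowest (-0.87; edgeR, adjusted p = 1.02e-10). In global footprints against mRNA 4 were higher and 26 lower (median -1.92; 7 and 20 with library totals), with the mannoprotein gene SRL1 at 0.91 and PRY3 at -3.90. Against global footprints, 15 were higher in monosomes and 0 lower with edgeR (0 by unadjusted p and 0 by DESeq2), whereas in polysomes 9 were higher and 3 lower. Medians were 0.74 and 0.21, or 0.49 and -0.01 with genes at 0 in a group at their bound. With library totals 8 were higher and 7 lower in polysomes, and that median turned to -0.10.

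From that list 12 relatives of the members were singled out after the members' values were seen. In global footprints against mRNA 10 of the 12 were lower on the TMM scale, against 31% of all genes. With library totals 4 were lower (ECM33, CRH1, DAN1 and PIR3), against 1028 of 5336 genes. Some of the 10 rest on few counts. CRR1 had 1 and 1 global footprints and 4 and 8 mRNA fragments, and SPI1 had 3 and 3 against 8 and 6. CIS3, a Pir gene that lies 574 nt from HSP150, had a log2 ratio of 0.28 in global footprints against mRNA (SE 0.13; edgeR, adjusted p = 0.0579), far from the -2.11 of HSP150. It had 785 and 559 global footprints and 465 and 339 mRNA fragments, and with library totals it was called higher. PIR5, also on chromosome X, was lower (edgeR, adjusted p = 0.0465) on only 2 and 0 global footprints and 3 and 5 mRNA fragments, and was not called with library totals. TIR3, a relative of TIR1, was lower in global footprints than in mRNA on the TMM scale (-1.15, SE 0.31; edgeR, adjusted p = 0.000783) but not with library totals. It was higher in monosomes than in global footprints (0.84, SE 0.24; edgeR, adjusted p = 0.0028), while TIR1 was called in neither comparison, and the difference between the genes was not tested. CRH1, a relative of UTR2 with the same enzyme activity, had fewer footprints than mRNA (-1.83, SE 0.17; edgeR, adjusted p = 3.29e-17) and was higher in monosomes than polysomes (0.77, SE 0.10; edgeR, adjusted p = 2.07e-10), like UTR2. ECM33, a relative of PST1, was at -2.01 and 0.41 in the same comparisons. PIR3, on chromosome XI like PIR1, had 12 and 9 mRNA fragments and 0 global footprints in both libraries, which allows up to 3 per library.

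Of 37 genes for glucan and chitin synthesis and remodelling 35 were tested. In monosomes against polysomes 19 were higher and 9 lower (median 0.43, with library totals 26 and 6), against 36.6% and 33.5% of all genes. CHS7, which helps to export a chitin synthase, was at 1.56, and RHO1, the GTPase that activates glucan synthase, at -1.27 (edgeR, adjusted p = 3.84e-20 and 2.62e-21). In global footprints against mRNA 5 were higher and 24 lower (median -1.48; 8 and 19 with library totals), and FKS1, the main glucan synthase, was at -3.69 (edgeR, adjusted p = 8.80e-44). Against global footprints, 10 were higher and 9 lower in monosomes, beside 22.2% and 24.3% of all genes. The median was 0.17, or 0.16 with FKS3, at 0 in the global libraries, at its bound. In polysomes 3 were higher and 6 lower, beside 13.5% and 10% of all genes. That median was -0.12, or -0.22 with the FKS3 bound. With library totals 20 were lower in polysomes, against 2002 of 5336 genes. All 55 genes for mannosylation and GPI anchors were tested: 45 were higher in monosomes than in polysomes and 4 lower (median 1.26; 48 and 4 with library totals). ERI1, a subunit of the enzyme that starts the GPI anchor, was at 2.77 (edgeR, adjusted p = 1.82e-32), whereas PSA1, the GDP-mannose pyrophosphorylase, was at -1.42 (edgeR, adjusted p = 4.17e-18). In global footprints against mRNA 2 were higher and 43 lower (median -2.02; 5 and 34 with library totals), with the O-mannosyltransferase genes PMT4 at -3.91 and PMT2 at -3.90. Against global footprints, 19 were higher and 6 lower in monosomes (median 0.35), and 4 were higher and 22 lower in polysomes (median -0.66; 2 and 37 with library totals). For the 10 mannoproteins the medians were -0.29 in monosomes against polysomes and -0.82 in global footprints against mRNA. With library totals they were 0.17 and -0.05. On that scale the 3 lists, in the order read, stood at 0.81, 0.89 and 1.72, and at -1.15, -0.72 and -1.26. The differences between lists were not tested.

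The 10 profiles over the 8 libraries differed among themselves. Each gene's log2 CPM was centred on its own mean, and likeness was measured as Euclidean distance over 8 libraries. TIP1 and TIR1 were nearest to each other at 0.44, CWP1 and SED1 at 0.70, and CCW12 and CWP2 at 0.89. UTR2 had its nearest member, HSP150, at 2.03. Distances to the mean profile of the 10 ran from 0.58 for CWP1 to 3.36 for UTR2, against a median of 2.12 for 5326 other genes. Each member is part of that mean profile, which draws it closer, so the members and the other genes are not on an equal footing. The other genes nearest to that mean profile were PMU1 (0.26), YNL134C (0.30), OCA5 (0.31), SVL3 (0.31) and NSG2 (0.32), and those nearest to CCW12 were GSP2 (0.32), RPL6B, TRX1 and RPS11A (0.34 each) and EGD2 (0.36). GSP2, RPL6B and RPS11A have near-identical copies elsewhere in the genome, so their counts are uncertain.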

How the data were processed

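Raw counts for each gene and library were deposited in 1 table, per the file headers. TopHat, Bowtie, HTSeq and DESeq2 on sacCer3 are named in the submitters' processing notes, without versions. Strand setting and treatment of multiply matching reads are not given in the sources used here. The authors also deposited DESeq2's log2 fold change with its adjusted p-value, without a named comparison. The sign followed monosome over polysome counts in 98.4% of genes.

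Counts were tested with edgeR 4.0.16 (R 4.3.3) by quasi-likelihood F tests, fitted once to 8 libraries in 4 groups, with TMM factors (0.691 to 1.26), filterByExpr (minimum count 10, minimum total 15) and Benjamini-Hochberg adjustment over 5336 genes at a threshold of 0.05. The SE is the absolute log2 fold change over the square root of F. No library copied its partner (chi-square over degrees of freedom 1.49 to 5.42). Gene names, positions and lengths come from the RefSeq R64 table, which matched 6008 of 6692 identifiers. Lengths run from gene start to gene end, introns included. The fitting code was tested on simulated data with 1 spread for all genes. A log2 change of 0.5 was recovered for 64.2% of changed genes in monosome against polysome. It was recovered for 19.4% in global against mRNA, 17.9% in monosome against global and 25.4% in polysome against global. The changed genes were drawn at random from all genes tested, so these are not rates for the 10 genes. A gene not called may still differ by such an amount where its 95% interval reaches it. Among the members that held for PST1 in polysome against global (-0.62 to 0.18) and TIR1 in global against mRNA (-0.53 to 0.16). It did not hold for CWP1 in polysome against global (-0.23 to 0.31). Nor did it for PIR1 and TIR1 in monosome against global (-0.01 to 0.48 and -0.38 to 0.17).

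Alternatives were RLE factors, library totals, DESeq2 1.42.0, no filter, a filter at a mean of 100 counts, the 2 groups alone, a replicate block and each library left out, whose partner was then assumed to vary like the other groups. The 10 genes and the lists were chosen with earlier results of these data known. Named genes are the 10 and, per list and comparison, up to 2 each way with the largest change past the threshold, a mean of 50 counts or more and no overlap. Not all of these are printed. Bounds for genes at 0 used 3 counts per library. Profiles used a prior count of 2.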

Additional observations from a re-analysis of the deposited data

How the results depend on the processing

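Directions relative to the TMM scale depend on it. With library totals only, the median of all genes moved by 0.45 (monosome against polysome), 0.76 (global against mRNA), 0.00 (monosome against global) and -0.45 (polysome against global). All-gene calls became 3030 higher and 867 lower (from 1954 and 1790), 2906 and 1028 (from 1855 and 1653), 1177 and 1258 (from 1186 and 1295) and 181 and 2002 (from 720 and 534). With RLE factors the median of all genes for global against mRNA moved by -0.15. Without a filter it moved by the same amount, but over 6261 genes rather than 5336. The median of the 10 genes went from -0.82 to -0.97 with RLE factors and to -0.73 without a filter. With library totals, monosome against polysome had 4 of the 10 genes higher and 0 lower with edgeR (1 at an unadjusted p under 0.05, 5 by DESeq2; median 0.17, from -0.29). CCW12 (0.15), CWP2 (0.03), TIP1 (0.01), PIR1 (0.19) and HSP150 (0.10) changed sign. Global against mRNA had 4 higher and 2 lower (median -0.05, from -0.82), with CWP1 (0.05), TIP1 (0.37) and TIR1 (0.58) reversed. Polysome against global had 4 higher and 3 lower (median 0.08, from 0.53), with CWP1 (-0.41) and SED1 (-0.01) reversed. A filter at a mean of 100 counts left 3086 genes, with 1190 and 1118 all-gene calls for monosome against polysome and 1204 and 1082 for global against mRNA. With it, monosome against polysome had 1 gene lower (median -0.04), the median for global against mRNA was -1.09, and that for polysome against global 0.38, with CWP1 at -0.10. TMM factors were refitted over the genes left, and the members moved nearly alike. In monosome against polysome, CCW12 went from -0.31 to -0.06, CWP1 from 0.48 to 0.73 and PST1 from 1.39 to 1.63. The stricter filter thus acted mainly as a further change of scale. Why the factors changed with it was not tested.

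With 1 library left out, genes called lower in monosomes than polysomes numbered 1 to 6, with medians of -0.33 to -0.18. For global against mRNA 5 to 7 were lower and 2 higher, with medians of -0.88 to -0.52. TIR1 ranged there from -0.42 to 0.06. For monosome against global 4 to 9 were higher (medians 0.36 to 0.54), and TIR1 ranged from -0.32 to 0.16. For polysome against global 5 to 7 were higher and 0 to 1 lower (medians 0.46 to 0.66), and CWP1 ranged from -0.11 to 0.20. Without polysome or global replicate 2, or either mRNA library, 0 were called lower with edgeR (0 without polysome or global replicate 2 and 1 without either mRNA library at an unadjusted p under 0.05; 1 by DESeq2 on all libraries). All-gene calls lower in polysomes fell from 534 to 277 and 259 without global replicates 1 and 2.

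Replicate numbers are shared across groups, but the labels do not say that they pair libraries. Deviations of same-numbered libraries correlated at -0.00844 to 0.0581. With the replicate block, no call of the 10 genes changed in the 4 comparisons (4 and 6, 2 and 7, 8 and 0, 7 and 1 higher and lower; medians -0.28, -0.82, 0.47 and 0.53), and all-gene calls were 1965 and 1825 for monosome against polysome and 786 and 554 for polysome against global. Depth limits the precision of PST1 and UTR2, with 32 to 60 global footprints, and of PST1 also in mRNA, with 53 and 55 fragments.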
